A study of Mus musculus with 40 samples.

Results

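Mouse branching lung organoids of the condition labelled ALL-VC were compared with organoids of the condition labelled ALL, with 2 libraries in each group. These 4 libraries were chosen by their labels alone, out of 40 in the series, and no measured value entered the choice. All of them are labelled as lung organoids, which are epithelial cultures that branch in the dish, and bulk RNA was sequenced from whole organoids. The labels spell out neither VC nor ALL, nor do they give strain, age, culture time or doses. Reading ALL as the complete medium and the minus sign as an omission is an assumption that every sentence below carries. Values are in TPM, each gene's share of all transcripts of a library, corrected for transcript length and scaled to the same total in every library. Differences are given as ALL-VC minus ALL on log2(TPM + 1), with their standard error (SE) from limma, a linear model fitted across all genes. A gene was called when its p-value, adjusted over all 14802 genes tested by the Benjamini-Hochberg method, was under 0.05. The fit also held 2 libraries each of ALL-FGF10 and ALL-MTG, which lack other components of the same medium if the minus sign is read in the same way. A further ALL library without a number, and 1 library each labelled 2C+VC and 2C, stood outside the fit. The labels do not say whether the numbered libraries came from separate cultures, so a p-value here reflects variation among these particular libraries, which may be technical.

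All 4 libraries carried the epithelial markers of distal lung, with Nkx2-1, the lung lineage transcription factor, at 289.6 and 333 TPM in ALL-VC and 311 and 247 TPM in ALL. Sftpc, the surfactant protein of type 2 cells, was at 58956 and 64469 TPM in ALL-VC and 53158 and 86843 TPM in ALL. Ptprc, the pan-leukocyte gene, was at 0 in all 4, and the 14 leukocyte markers summed to 1.22 to 4.92 TPM. The ALL libraries differed from each other more than the ALL-VC libraries did, with Pearson's r over all genes of 0.985 within ALL-VC and 0.972 within ALL. Between the groups, r with each ALL-VC library was 0.974 for ALL library 1 and 0.967 for ALL library 2. ALL library 1 was thus no closer to ALL library 2 than to ALL-VC. All 15 mesenchymal markers were at 1 TPM or more in ALL library 1, and 4 and 5 of them in the ALL-VC libraries and 5 in ALL library 2. Col3a1, a fibroblast collagen, shows this at 0 and 0.06 TPM in ALL-VC against 45.2 and 0.8 TPM in ALL. Summed over the 15, mesenchymal transcripts were 847 and 848 TPM in ALL-VC, against 841 and 472 TPM in ALL. The 33 interferon response genes summed to 171 and 209 TPM in ALL-VC, against 1440 and 447 TPM in ALL. ALL library 2 had Xist at 147 TPM and the Y-linked Eif2s3y at 0.22 TPM, while the ALL-VC libraries and ALL library 1 had Eif2s3y at 74.5 to 77.9 TPM. The unnumbered ALL library had Xist at 212 TPM and Eif2s3y at 0. Genes of 100 to 150 nt were at 0 in all 4 compared libraries, while 54 and 119 of them were above 0 in ALL-FGF10, 21 and 0 in ALL-MTG and 171 in the unnumbered ALL library. The part of these differences in the results was not tested. Without ALL library 1, 1071 of 14554 genes tested (7.36%) were called higher and 238 (1.64%) lower, with a median difference of 0.33. Without ALL library 2, 20 genes (0.137%) were called higher and 56 (0.383%) lower, with a median of 0.03. The counts of list members called with either left out, given below, are to be read against these shares.

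Alveolar type 2 cells make surfactant and, unlike most epithelial cells, carry MHC class II molecules. In class II presentation, antigen is cut by cathepsins in endosomes and lysosomes. The invariant chain Cd74 escorts new class II molecules there, and H2-DM exchanges its remnant for peptide. The coactivator Ciita, with the RFX complex and NF-Y on the promoter, switches these genes on together. Alveolar type 1 cells, the flat cells of gas exchange, carry Pdpn. Igf2, Dlk1 and Grb10 are imprinted genes, read from 1 parental copy and high in fetal tissue.

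Of the 14802 genes tested, 119 (0.804%) were called, 31 of them (0.209%) higher and 88 (0.595%) lower in ALL-VC, and 2533 had an unadjusted p under 0.05. Counts of list members under that unadjusted p, given below, are to be read against these 2533 of 14802 genes. Among 50 gene lists, MHC class II and mucosal defence had the most called members, 5 each and all lower. The class II promoters are shown because these members fell together. The windows below hold the 200 bases before the RefSeq start of 3 of the 5 called class II genes, from build GRCm38.p6. H2-Aa is on the minus strand at chr17:34287824-34288023, H2-DMb1 on the plus strand at chr17:34152991-34153190 and H2-DMb2 on the plus strand at chr17:34145049-34145248. Capitals mark TGATTGG, the core of the Y box, which NF-Y recognises.
H2-Aa: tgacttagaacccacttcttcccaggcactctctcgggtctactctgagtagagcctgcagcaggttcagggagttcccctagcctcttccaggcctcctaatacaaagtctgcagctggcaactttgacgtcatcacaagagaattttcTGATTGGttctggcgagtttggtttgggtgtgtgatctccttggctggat
H2-DMb1: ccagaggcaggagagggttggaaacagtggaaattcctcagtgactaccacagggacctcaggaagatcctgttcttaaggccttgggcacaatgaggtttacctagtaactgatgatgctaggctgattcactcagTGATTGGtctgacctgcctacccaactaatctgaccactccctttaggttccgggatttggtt
H2-DMb2: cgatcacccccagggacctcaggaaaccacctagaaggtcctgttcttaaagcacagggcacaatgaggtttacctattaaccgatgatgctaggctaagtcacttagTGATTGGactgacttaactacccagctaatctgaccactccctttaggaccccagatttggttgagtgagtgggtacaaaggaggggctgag
The match begins 50 bases before the start in H2-Aa, 63 in H2-DMb1 and 92 in H2-DMb2, each in the direction of the gene. It was searched on both strands and chosen after these windows were seen. Of the 7 class II list members with a promoter in the table, 5 held it, against 2431 of 27025 genes (9%). Those 5 include the 3 shown, whose windows were seen before the choice, so the share is no test. The others are H2-Eb1 and Rfx5, neither of them called. An interferon-stimulated response element, GAAANNGAAA on either strand, was in 0 of the 7, against 1079 genes (3.99%). These counts cover each gene's whole promoter sequence in that table, which reaches beyond the 200 bases shown. H2-Ab1 and Cd74 were not matched in the promoter table. A match describes letters in the window, not binding.

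Both chains of the I-A molecule, the invariant chain and 2 loading chains of MHC class II fell in ALL-VC. H2-Ab1, the beta chain of I-A (chr17:34257689-34269419, in the mm10 gene annotation used for all gene positions here), was at 12.3 and 16.3 TPM in the ALL-VC libraries, against 406 and 438 TPM in the ALL libraries (difference -4.80 ± 0.34 SE, adjusted p = 0.00484). Its partner H2-Aa, the alpha chain (chr17:34282744-34287823), was at 23.5 and 47.3 TPM in ALL-VC, against 665 and 762 TPM in ALL (-4.37 ± 0.36, adjusted p = 0.00645). Cd74 (chr18:60803848-60812652) was at 234 and 369 TPM in ALL-VC and 2302 and 2599.8 TPM in ALL (-3.05 ± 0.27, adjusted p = 0.00652). For each of these genes the groups lie far apart, and the ALL-VC libraries are also the lowest of the 8 numbered libraries. The peptide loading chains moved less: H2-DMb2 was at 6.17 and 8.01 TPM in ALL-VC and 41.7 and 44.4 TPM in ALL (-2.45, adjusted p = 0.00652). H2-DMb1 was at 18.6 and 17.5 TPM in ALL-VC and 54 and 59.1 TPM in ALL (-1.59, adjusted p = 0.0243). H2-DMb1 and H2-DMb2 are near-identical neighbours, so how reads were divided between them is uncertain.

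Of the 14 genes on the class II list, 11 were tested, 5 were called lower and 0 higher, and the median difference was -2.03, against 0.18 over all genes tested. The remaining 6 did not pass. H2-Eb1, the beta chain of the I-E molecule, was at 11.2 and 11 TPM in ALL-VC and 134 and 168 TPM in ALL (adjusted p = 0.122), and the loading chain H2-DMa at 23.2 and 26.4 TPM in ALL-VC and 54.7 and 65.9 TPM in ALL (adjusted p = 0.0797). Ciita was at 0.81 and 2.1 TPM in ALL-VC and 9.22 and 8.18 TPM in ALL (adjusted p = 0.153). The groups do not overlap for these 3 genes, with the lower values in ALL-VC. H2-Eb1 was called without ALL-MTG library 1 (adjusted p = 0.00103), in which it was near 0, or library 2 (0.00119), and H2-DMa without ALL library 1 (0.0473). The RFX genes showed nothing of the kind: Rfx5 was at 17 and 17.1 TPM in ALL-VC and 14 and 10.1 TPM in ALL, and the differences of Rfxap and Rfxank were 0.21 and 0.07. Summed over the list, class II transcripts were 368 and 540 TPM in ALL-VC, against 3704.5 and 4173 TPM in ALL, with Cd74 the largest part.

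The class II calls depended on some libraries and not on others. H2-Ab1 and H2-Aa stayed called with each of the 8 libraries left out in turn, with adjusted p of up to 0.048 without ALL-VC library 1. Cd74 and H2-DMb2 missed the threshold without ALL-VC library 1 (adjusted p = 0.0618 and 0.0665) and were called in the 7 other cases. H2-DMb1 was lost without either ALL-VC library (adjusted p = 0.135 for each), without ALL library 2 (0.0708) and without either ALL-FGF10 library (0.0713 and 0.0696). The unnumbered ALL library held less class II RNA than the numbered ones and more than ALL-VC, with 86.5 TPM of H2-Ab1, 142 TPM of H2-Aa and 586 TPM of Cd74. ALL-FGF10 had 128 and 115 TPM and ALL-MTG 114 and 50.6 TPM of H2-Ab1, which also lie between. Leukocytes also carry class II genes. The pan-leukocyte gene Ptprc and Tyrobp, a marker of some leukocytes, were at 0 in all 4 libraries. The macrophage marker Cd68 was at 1.22 and 4.78 TPM in ALL-VC and 1.78 and 3.82 TPM in ALL. In bulk RNA, fewer cells of a type and less RNA per cell cannot be told apart, here and in every result that follows.

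MHC class I and the immune genes around it moved less. Of 20 class I and antigen processing genes, 19 were tested and 2 were called, both lower, with a list median of -0.98. H2-D1, a classical class I heavy chain, was at 116 and 125 TPM in ALL-VC and 442 and 346 TPM in ALL (-1.69 ± 0.19, adjusted p = 0.0146). Psmb8, a catalytic subunit of the immunoproteasome, was at 12.3 and 11.4 TPM in ALL-VC and 63.4 and 36.1 TPM in ALL (-1.92, adjusted p = 0.037). Neither gene overlapped between the groups. H2-K1 was at 368 and 394 TPM in ALL-VC and 854 and 704 TPM in ALL, just short of the threshold (adjusted p = 0.0548), and B2m, the light chain of class I, at 343 and 371 TPM in ALL-VC and 961 and 466 TPM in ALL (adjusted p = 0.228). The unnumbered ALL library had 71.6 TPM of H2-D1 and 5.23 TPM of Psmb8, below both ALL-VC libraries. H2-K1 was called without ALL library 1 (0.0474) or either ALL-MTG library (0.0261 and 0.0264). The call of H2-D1 was lost without ALL-VC library 1 (adjusted p = 0.115) or library 2 (0.09), and that of Psmb8 without these (0.201 and 0.184) or either ALL-FGF10 library (0.0889 and 0.087). Icam1, the adhesion molecule bound by leukocyte integrins, was at 66.5 and 76.6 TPM in ALL-VC and 219 and 223 TPM in ALL (-1.62 ± 0.13, adjusted p = 0.00645), and 118 TPM in the unnumbered ALL library. Its call was lost in 1 case, without ALL-VC library 1 (adjusted p = 0.062). The class I list had 4 lower calls without ALL library 1, 2 without ALL library 2 and 0 without either ALL-VC library.

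The interferon list had a median as low as that of class II and almost no calls. Of 33 genes, 31 were tested, 23 lay below both ALL libraries in both ALL-VC libraries, and 1 was called, Ifi27, an interferon-induced mitochondrial protein. It was at 10.4 and 6.69 TPM in ALL-VC and 114 and 58.1 TPM in ALL (-3.13 ± 0.34, adjusted p = 0.014), and was lost without ALL-VC library 1 (adjusted p = 0.0709) or 2 (0.089). Over all genes tested, both ALL-VC libraries lay below both ALL libraries in 13.53% and above both in 31.61%. At an unadjusted p under 0.05 the list had 22 genes, all lower. Isg15, a ubiquitin-like interferon product, was at 0 and 0.66 TPM in ALL-VC and 78.6 and 10.9 TPM in ALL (adjusted p = 0.0603), and the ALL libraries differ widely from each other. It was called without ALL library 1 (0.0384) or 2 (0.0301). Without ALL library 1 the list had 0 genes called higher and 5 lower, and a median of -1.01, and without ALL library 2 it had 0 and 12, and a median of -2.78. The unnumbered ALL library had 0.54 TPM of Isg15, 0.4 TPM of the antiviral gene Ifit1 (0.25 and 1.03 TPM in ALL-VC) and 9.16 TPM of Ifi27, all within the range of the ALL-VC libraries. Phf11d, a PHD finger gene among the 12 largest falls, was at 1.52 and 0.97 TPM in ALL-VC and 64 and 15.3 TPM in ALL (adjusted p = 0.0479), and 1.76 TPM in the unnumbered ALL library. ALL library 1, the highest for Isg15, Ifit1 and Phf11d, is also the one with all 15 mesenchymal markers, and their part in these results was not tested. The call of Phf11d held in 2 of the 8 leave-one-out cases, those without an ALL library, and was lost in the other 6 (adjusted p of 0.0709 to 0.21).

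**Figure D1:**
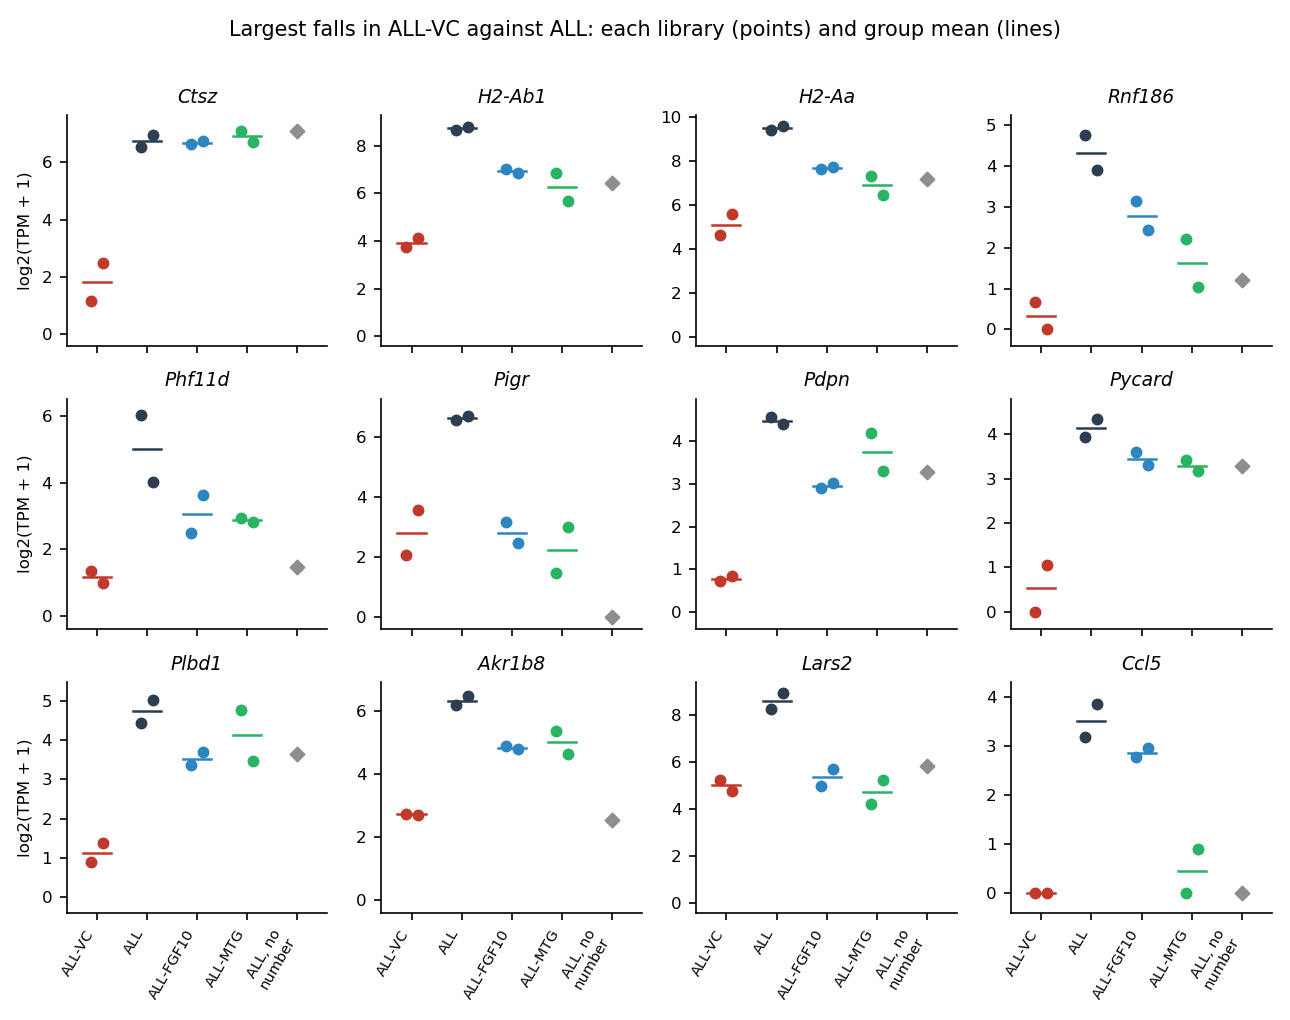
The 12 largest falls in ALL-VC against ALL among called genes, as log2(TPM + 1) (vertical axis) in each library (points) with group means (lines), for ALL-VC, ALL, ALL-FGF10, ALL-MTG and the unnumbered ALL library (grey diamond). Ctsz is low in ALL-VC alone (1.26 and 4.65 TPM, against 90.9 and 124 TPM in ALL), whereas Pigr and Lars2 are high in the numbered ALL libraries alone.

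Ctsz, a lysosomal carboxypeptidase (chr2:174427493-174439039), had the largest fall of the genes named by the rule. It was at 1.26 and 4.65 TPM in ALL-VC, against 90.9 and 124 TPM in ALL (mean 2.96 ± 2.40 against 107 ± 23.2, SD, n = 2 each; difference -4.91 ± 0.40 SE, adjusted p = 0.00645). The 4 libraries of ALL-FGF10 and ALL-MTG had 97.4 to 134 TPM and the unnumbered ALL library 136 TPM, so ALL-VC stood apart from every one of these. The call held with each of the 8 libraries left out. Of 28 lysosomal genes, 26 were tested, 2 were called lower and 0 higher, and the median difference was -0.10. The list had 1 higher and 3 lower calls without ALL library 1, and 1 lower without ALL library 2. The other called member was Hexa, a subunit of beta-hexosaminidase, at 7.8 and 20.9 TPM in ALL-VC and 66.8 and 72.2 TPM in ALL (adjusted p = 0.0453). Most of the organelle's transcripts differed little: the membrane protein Lamp1 was at 519 and 583 TPM in ALL-VC and 642 and 589.7 TPM in ALL, and the protease Ctsc at 704 and 686 TPM in ALL-VC and 747 and 560.2 TPM in ALL.

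Further lysosomal enzymes outside that list fell, and were picked after their values were seen. Plbd1, a phospholipase B-like protein and 1 of the 12 largest falls by rule, was at 0.86 and 1.58 TPM in ALL-VC and 20.7 and 31.5 TPM in ALL (adjusted p = 0.0217). Acp5, a tartrate-resistant acid phosphatase, was at 0 and 1.4 TPM in ALL-VC and 15.9 and 9.57 TPM in ALL (adjusted p = 0.0305). Smpdl3a, a relative of acid sphingomyelinase, was at 7.6 and 16.1 TPM in ALL-VC and 51.8 and 44.1 TPM in ALL (adjusted p = 0.0374). The groups do not overlap in any of them, and the unnumbered ALL library had 11.49 TPM of Plbd1, 20.1 TPM of Acp5 and 38.7 TPM of Smpdl3a, each above both ALL-VC libraries. The calls of Hexa, Plbd1, Acp5 and Smpdl3a were lost without ALL-VC library 1 (adjusted p of 0.0822 to 0.143) and without ALL library 2 (0.0664 to 0.142). Those of Hexa, Acp5 and Smpdl3a were also lost without either ALL-FGF10 library (0.0722 to 0.0951), those of Hexa and Smpdl3a without either ALL-MTG library (0.0559 to 0.0629), and that of Plbd1 without ALL-VC library 2 (0.0909).

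Pdpn, Muc1 and Muc20, which sit on the surface of lung epithelium, fell, while nearly all of the type 1 and type 2 lists was not called. Pdpn, a mucin-like membrane protein of type 1 cells, was at 0.66 and 0.79 TPM in ALL-VC and 22.5 and 20.2 TPM in ALL (-3.69 ± 0.32, adjusted p = 0.00652). Muc1, a membrane mucin on the type 2 list, was at 44.3 and 69.9 TPM in ALL-VC and 391 and 653 TPM in ALL (-3.16 ± 0.38, adjusted p = 0.0196). Muc20, another membrane mucin, was at 1.18 and 1.41 TPM in ALL-VC and 17.5 and 14.1 TPM in ALL (-2.87, adjusted p = 0.00717). The unnumbered ALL library had 8.7 TPM of Pdpn, 141 TPM of Muc1 and 1.86 TPM of Muc20, so it lay above both ALL-VC libraries by a small margin for Muc20 and a wide one for Pdpn and Muc1. ALL-MTG, too, had low Muc20, at 2.02 and 1.57 TPM. The calls of Pdpn and Muc20 were lost in 1 leave-one-out case, without ALL-VC library 1 (adjusted p = 0.0709 for each). That of Muc1 was lost without ALL-VC library 1 (0.133), ALL-VC library 2 (0.0825) or ALL library 2 (0.0744).

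Of 24 type 2 genes, 23 were tested, 1 (Muc1) was called lower and 0 higher, with a median of -0.42. In the list, 17 members lay below both ALL libraries, as did 13.53% of all genes. Sftpb, which organises surfactant films, was at 5532 and 5853 TPM in ALL-VC and 5759 and 6912 TPM in ALL, and Scd1, a fatty acid desaturase, at 2014 and 2618 TPM in ALL-VC and 4822 and 4709.9 TPM in ALL (adjusted p = 0.373). Scd1 was called lower without ALL-MTG library 1 (0.0348) or 2 (0.0357). Of 21 type 1 genes, all were tested, and 1 (Pdpn) was called lower and 0 higher, with a median of -0.01. Ager, a receptor carried by type 1 cells, was at 917 and 896 TPM in ALL-VC and 1143 and 1059 TPM in ALL (adjusted p = 0.592), and the tight junction gene Cldn18 at 498 and 659 TPM in ALL-VC and 462.8 and 476 TPM in ALL (adjusted p = 0.428). Of 16 distal tip progenitor genes, 14 were tested and 0 called by limma, with 4 at an unadjusted p under 0.05 (2533 of 14802 over all genes). The median of that list was 0.30, and 2 members were called higher without ALL library 1, when 7.36% of all genes were. The type 2 list had 3 lower calls without ALL library 1 and 0 without ALL library 2 (medians of -0.42 and -0.58). The type 1 list had 1 lower call in both cases and 1 higher call without ALL library 1, and its median was 0.21 without ALL library 1 and -0.33 without ALL library 2.

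Of 22 ion and water transport genes, 19 were tested and 1 was called, lower, with a median of 0.06, or 0.26 without ALL library 1 and 0.17 without ALL library 2. This was Scnn1a, the alpha subunit of the epithelial sodium channel, at 4.83 and 8.68 TPM in ALL-VC and 42.6 and 35.7 TPM in ALL (-2.41 ± 0.36, adjusted p = 0.0367), with 104 TPM in the unnumbered ALL library. Slc2a3, a glucose transporter, was at 0.99 and 3.21 TPM in ALL-VC and 35.3 and 25.7 TPM in ALL (adjusted p = 0.0366), with 63.5 TPM in the unnumbered ALL library. For both genes ALL-VC was the lowest of every numbered group. The anion exchanger Slc26a4, chosen after its values were seen, differed from them: it was at 27.9 and 31.5 TPM in ALL-VC and 222 and 129 TPM in ALL (adjusted p = 0.0256), but at 45.4 and 27.6 TPM in ALL-FGF10, 26.4 and 36.1 TPM in ALL-MTG and 1.28 TPM in the unnumbered ALL library. Scnn1a and Slc2a3 were lost without any 1 of the ALL-VC libraries, ALL library 2 or the ALL-FGF10 libraries (adjusted p of 0.0589 to 0.201), and Slc26a4 without either ALL-VC library (0.16 and 0.126).

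Several metabolic enzymes fell, most of them picked here after their values were seen. Akr1b8, an aldo-keto reductase and 1 of the 12 largest falls by rule, was at 5.69 and 5.55 TPM in ALL-VC and 71.3 and 87.8 TPM in ALL (-3.60 ± 0.26, adjusted p = 0.00484). Ahcy, which breaks down S-adenosylhomocysteine, was at 3.79 and 2.57 TPM in ALL-VC and 28.2 and 22 TPM in ALL (-2.65 ± 0.24, adjusted p = 0.00685). Gstt2, a theta class glutathione transferase, was at 9.03 and 10.7 TPM in ALL-VC and 58.2 and 72.9 TPM in ALL (-2.61 ± 0.22, adjusted p = 0.00645). Within each group these values are close, and the groups are far apart. They are divided by the unnumbered ALL library, which had 69.8 TPM of Gstt2, like the numbered ALL libraries, but 4.86 TPM of Akr1b8 and 3.53 TPM of Ahcy, like ALL-VC. Akr1b8 and Ahcy stayed called with each of the 8 libraries left out, and Gstt2 was lost without ALL-VC library 1 (adjusted p = 0.0665). Ahcy and Gstt2 were chosen after their values were seen, as was Gm4737, a predicted gene that ran against Ahcy. Gm4737 was called higher, at 94.5 and 71.5 TPM in ALL-VC and 34.4 and 28.9 TPM in ALL, and was at 58.85 TPM in the unnumbered ALL library. Whether reads were divided between Ahcy and Gm4737 was not tested, so the fall of Ahcy is less certain than its calls.

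Gstt1, a second theta class transferase, was at 68 and 95.7 TPM in ALL-VC and 231 and 213 TPM in ALL (adjusted p = 0.0367), and Akr1b3, aldose reductase, at 29 and 26 TPM in ALL-VC and 65.8 and 70.9 TPM in ALL (adjusted p = 0.0249). Aldh1l1, which oxidises formyl-tetrahydrofolate, was at 0.22 and 0.75 TPM in ALL-VC and 10.4 and 5.82 TPM in ALL (adjusted p = 0.0367). These 3 were also chosen after their values were seen. The unnumbered ALL library had 60.2 TPM of Gstt1, below both ALL-VC libraries, 30.05 TPM of Akr1b3, just above them, and 3.87 TPM of Aldh1l1. In ALL-MTG, Gstt1 was at 58 and 76.1 TPM, which overlap ALL-VC. Of 24 oxidative stress and glutathione genes, 23 were tested and 1 was called, Gclc, the catalytic subunit of the enzyme that limits glutathione synthesis, at 71.5 and 64.3 TPM in ALL-VC and 141 and 126 TPM in ALL (-0.97 ± 0.14, adjusted p = 0.0305). Gclc was at 54.6 TPM in the unnumbered ALL library, below both ALL-VC libraries, and at 64.4 and 59.7 TPM in ALL-MTG. The list median was -0.10, with 3 lower calls without ALL library 1 and 1 without ALL library 2, and Gpx4, the glutathione peroxidase of membranes, was at 418 and 450.3 TPM in ALL-VC and 446 and 534 TPM in ALL (adjusted p = 0.557). The calls of Gstt1, Akr1b3, Aldh1l1 and Gclc were lost without either ALL-VC library or either ALL-FGF10 library (adjusted p of 0.0795 to 0.208), and those of all but Gclc without ALL library 2 (0.0555 to 0.103).

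In a further set of falls, as for several of the enzymes above, the unnumbered ALL library was not above ALL-VC, or was near it. Of 23 mucosal defence genes, 13 were tested, 5 were called lower and 0 higher, and the median was -1.29. Pigr, the receptor that carries IgA across epithelia, was at 3.16 and 10.8 TPM in ALL-VC and 93 and 103 TPM in ALL (adjusted p = 0.0444), but also at 8.1 and 4.49 TPM in ALL-FGF10, 1.79 and 6.95 TPM in ALL-MTG and 0 in the unnumbered ALL library. Cd177, a GPI-anchored glycoprotein best known from neutrophils, was at 3.82 and 4.04 TPM in ALL-VC and 38.2 and 70.3 TPM in ALL (adjusted p = 0.0258), and 0.06 TPM in the unnumbered ALL library. In both genes the groups lie apart. Tlr2, which senses bacterial lipoproteins, was at 2.75 and 3.27 TPM in ALL-VC and 12.3 and 17.3 TPM in ALL (adjusted p = 0.0367), and 0.65 TPM in the unnumbered ALL library. Cd14, a co-receptor for lipopolysaccharide, was at 36.9 and 32.7 TPM in ALL-VC and 105 and 145 TPM in ALL (adjusted p = 0.0406), and 10.4 TPM in the unnumbered ALL library. In these 4 genes the unnumbered library lay below ALL-VC. The fifth, Wfdc2, a secreted protease inhibitor-like protein, was at 223 and 182 TPM in ALL-VC and 633 and 816 TPM in ALL (-1.83 ± 0.17, adjusted p = 0.00717) and at 359 TPM in the unnumbered ALL library, above both ALL-VC libraries. Wfdc2 was lost without ALL-VC library 1 or 2 (adjusted p = 0.062 and 0.0653), and the list had 6 calls without ALL library 1, 1 without ALL library 2 and 0 without either ALL-VC library.

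Chemokines and Lars2 belonged to the same set. Of 29 NF-kB and chemokine genes, 23 were tested, 3 were called lower (Icam1, Cxcl3, Ccl5) and 0 higher, with a median of -0.88. The list had 6 lower calls without ALL library 1 and 1 without ALL library 2. Cxcl3, which attracts neutrophils, was at 22.1 and 10.7 TPM in ALL-VC and 139 and 208 TPM in ALL (adjusted p = 0.0432), and 1.35 TPM in the unnumbered ALL library. Ccl5, which attracts T cells, was listed at 0 in both ALL-VC libraries and in the unnumbered ALL library, against 8.02 and 13.47 TPM in ALL (adjusted p = 0.0152). Pf4, a chemokine first known from platelets and chosen after its values were seen, was at 59.4 and 57.9 TPM in ALL-VC and 509 and 394 TPM in ALL (adjusted p = 0.0248), and 9.46 TPM in the unnumbered ALL library. For these 3 chemokines the unnumbered library was at or below ALL-VC. Lars2, the mitochondrial leucyl-tRNA synthetase, was at 36.9 and 26.2 TPM in ALL-VC and 307 and 479.8 TPM in ALL (-3.58, adjusted p = 0.0146), with 30.9 and 51.1 TPM in ALL-FGF10, 17.5 and 36.2 TPM in ALL-MTG and 56.7 TPM in the unnumbered ALL library. CT010467.1, annotated as ribosomal RNA and chosen after its values were seen, was also called lower. It was at 262 and 234 TPM in ALL-VC, 1374 and 2375 TPM in ALL, and 211 to 330 TPM in ALL-FGF10 and ALL-MTG. AY036118, which lies within it, was at 165 and 196 TPM in ALL-VC and 1109 and 1738 TPM in ALL. Whether Lars2 shares a source of reads with these entries was not tested. Rnf186, an epithelial ubiquitin ligase, was at 0.6 and 0 TPM in ALL-VC and 26.2 and 14 TPM in ALL (adjusted p = 0.0256), and 1.32 TPM in the unnumbered ALL library. For Cxcl3, Ccl5, Pf4, Lars2 and Rnf186 the 2 numbered ALL libraries were the highest of the 9 labelled ALL, ALL-VC, ALL-FGF10 or ALL-MTG. Pycard, the adaptor that assembles inflammasomes, was not of this kind: it was at 0 and 1.07 TPM in ALL-VC and 14.2 and 19.2 TPM in ALL (-3.61 ± 0.38, adjusted p = 0.0135), and 8.73 TPM in the unnumbered ALL library.

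The calls of this set were lost when single libraries were left out. Pigr, Cd177, Tlr2, Cd14, Cxcl3, Ccl5, Pf4, Lars2 and Rnf186 were each lost without ALL-VC library 1 (adjusted p of 0.0822 to 0.21), without ALL-VC library 2 (0.089 to 0.204) and without ALL library 2 (0.0572 to 0.151). Pigr, Tlr2, Cd14 and Cxcl3 were also lost without either ALL-FGF10 library (0.07 to 0.0928). Pycard was lost without ALL-VC library 1 (0.0665) or ALL library 2 (0.0572).

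**Figure D2:**
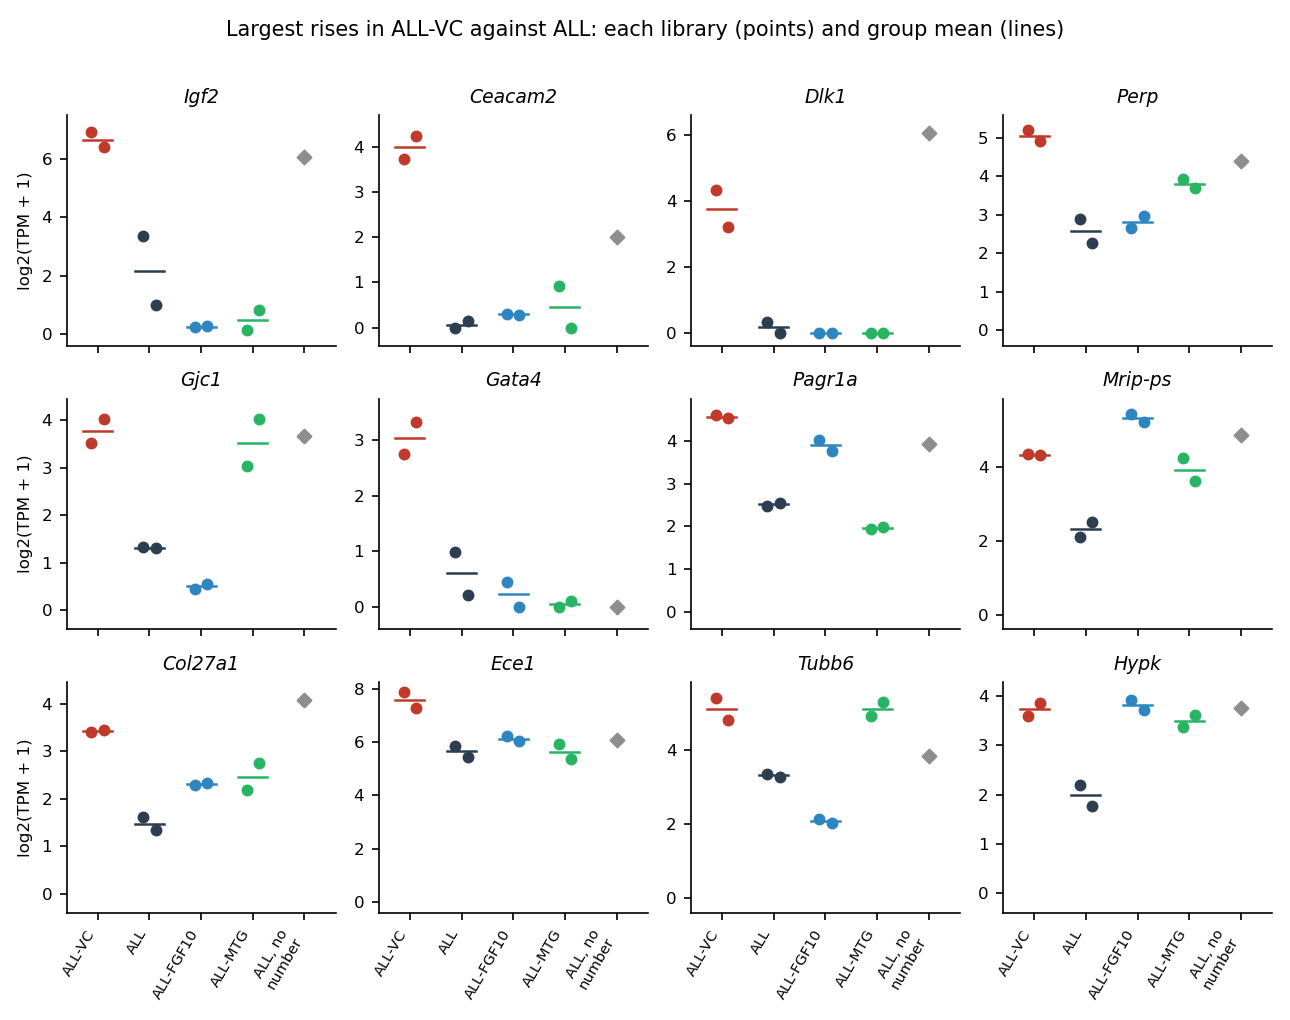
The 12 largest rises in ALL-VC against ALL among called genes, drawn as log2(TPM + 1) per library (points) with group means (lines), for ALL-VC, ALL, ALL-FGF10, ALL-MTG and the unnumbered ALL library (grey diamond). Gata4, Ceacam2 and Ece1 are highest in ALL-VC, whereas Dlk1 is higher still in the unnumbered ALL library (64.6 TPM).

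Imprinted growth genes were among the 31 genes higher in ALL-VC, of which 10 were predicted or Riken genes. Igf2, the fetal insulin-like growth factor (chr7:142650766-142666816), was at 119.9 and 84.5 TPM in ALL-VC and 9.25 and 0.98 TPM in ALL (4.50 ± 0.69, adjusted p = 0.0406). Dlk1, a Notch-like transmembrane protein, was at 18.9 and 8.09 TPM in ALL-VC and 0.24 and 0 TPM in ALL (3.59 ± 0.42, adjusted p = 0.0176). Grb10, an adaptor that dampens insulin and IGF receptor signalling, was at 202 and 190.3 TPM in ALL-VC and 95.9 and 65.3 TPM in ALL (1.30 ± 0.19, adjusted p = 0.0366). The ALL-FGF10 and ALL-MTG libraries had at most 0.77 TPM of Igf2 and 0 of Dlk1. In the unnumbered ALL library there were 66.1 TPM of Igf2, 64.6 TPM of Dlk1 and 149 TPM of Grb10, so for these genes the numbered ALL libraries were low beside it. Of 22 imprinted growth genes, 19 were tested, 3 were called higher and 0 lower, with a median of 0.51. Among those not called, Gnas was at 952 and 944 TPM in ALL-VC and 750.4 and 671 TPM in ALL (adjusted p = 0.252), and Igf2r, the receptor that clears Igf2, at 40.4 and 42.2 TPM in ALL-VC and 24.1 and 15.5 TPM in ALL (adjusted p = 0.148).

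Igf2r was called without ALL library 1 (adjusted p = 0.0458). With that library left out the imprinted list had 7 higher calls and 1 lower and a median of 1.36, where 7.36% of all genes were called higher. With ALL library 2 left out it had 2 higher calls and a median of 0.27. Igf2 was lost without either ALL-VC, ALL-FGF10 or ALL-MTG library (adjusted p of 0.0545 to 0.236). Dlk1 was lost without ALL library 2 (0.0688) and without ALL-FGF10 library 2 (0.05, above the threshold before rounding), and without an ALL-VC library it did not pass the filter on low values. Grb10 was lost without either ALL-VC or ALL-FGF10 library (0.0842 to 0.208) and without ALL-MTG library 2 (0.05, above the threshold before rounding). Of the 10 tested IGF and insulin signalling genes, Igf2 was called higher and Igfbp7, a secreted binding protein, lower, at 189 and 203 TPM in ALL-VC and 365 and 335 TPM in ALL (adjusted p = 0.0367), with 349 TPM in the unnumbered ALL library. In ALL-MTG it was lower than in ALL-VC, at 124 and 135 TPM. The call of Igfbp7 was lost without ALL library 2 (0.0576) and without either ALL-VC or ALL-FGF10 library (0.121 to 0.223). Igfbp5 was at 73 and 101 TPM in ALL-VC and 29.7 and 1.04 TPM in ALL, and was not called (adjusted p = 0.281).

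Cell junction genes held 2 rises. Ceacam2, a cell adhesion molecule, was at 12.3 and 17.9 TPM in ALL-VC and 0 and 0.1 TPM in ALL (3.92 ± 0.40, adjusted p = 0.0106), with 3.04 TPM in the unnumbered ALL library. Perp, a desmosomal protein, was at 35.7 and 29.3 TPM in ALL-VC and 6.43 and 3.85 TPM in ALL (2.47 ± 0.28, adjusted p = 0.0152), with 20.3 TPM in the unnumbered ALL library. Both genes lay above every other numbered library. Of 23 junction and polarity genes, 22 were tested and these 2 were called higher and 0 lower, with a median of 0.29. The adherens junction gene Cdh1 was at 289 and 335 TPM in ALL-VC and 285 and 196 TPM in ALL (adjusted p = 0.338). Perp was lost without ALL-VC library 1 (0.124) or 2 (0.089). Ceacam2 was called in the 6 leave-one-out cases in which it was tested. Its neighbour Ceacam1 ran the other way, at 10.6 and 16.3 TPM in ALL-VC and 37.6 and 27.85 TPM in ALL, and was not called (adjusted p = 0.0783). How reads were divided between Ceacam1 and Ceacam2 is uncertain.

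Gjc1, the gap junction protein connexin 45, was at 10.4 and 15.3 TPM in ALL-VC and 1.51 and 1.47 TPM in ALL (adjusted p = 0.0406), and Tubb6, a beta tubulin, at 41.5 and 26.9 TPM in ALL-VC and 9.11 and 8.66 TPM in ALL (adjusted p = 0.0347). ALL-MTG had 7.2 and 15.2 TPM of Gjc1 and 29.3 and 37.9 TPM of Tubb6, which overlap ALL-VC. Krt19, a simple epithelial keratin, was at 160.3 and 207 TPM in ALL-VC and 92.9 and 88.2 TPM in ALL (1.00, adjusted p = 0.0479), whereas Krt8 was at 289 and 297 TPM in ALL-VC and 267 and 254 TPM in ALL and was not called (adjusted p = 0.665). For Krt19, too, ALL-MTG overlapped ALL-VC, at 172 and 153 TPM. Ece1, the endothelin-converting enzyme, was at 235 and 155 TPM in ALL-VC and 57.6 and 42.5 TPM in ALL (adjusted p = 0.0305), with ALL-VC above all 6 other numbered libraries and the unnumbered one.

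Gata4, a transcription factor of heart and foregut endoderm (chr14:63198922-63271692), was at 5.77 and 9.1 TPM in ALL-VC and 0.99 and 0.16 TPM in ALL (2.44 ± 0.41, adjusted p = 0.0495), and at 0 in the unnumbered ALL library. Of 5 tested non-lung endoderm genes, Gata4 was called and 4 were not, among them Alb, the albumin of liver, at a mean of 9.01 ± 0.028 TPM in ALL-VC and 10.1 ± 0.59 TPM in ALL (SD, n = 2 each). Gjc1, Tubb6, Krt19 and Ece1 were lost without any 1 of the ALL-VC libraries, ALL library 2 or the ALL-FGF10 libraries (adjusted p of 0.07 to 0.208), and Krt19 also without either ALL-MTG library. Gata4 stayed called in 1 leave-one-out case, without ALL library 1 (0.0297), and was lost in 5 (up to 0.129).

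Cdkn1a, the p21 inhibitor of cyclin-dependent kinases, was at 139 and 135 TPM in ALL-VC and 45.5 and 36.5 TPM in ALL (1.73 ± 0.23, adjusted p = 0.0273), while ALL-MTG had 137 and 88.2 TPM. It was the 1 called gene of 19 cell cycle inhibitor and p53 genes, a list with a median of 0.64. That list had 5 higher and 1 lower call without ALL library 1, and 0 higher and 1 lower without ALL library 2. Pkm, the pyruvate kinase of glycolysis, was at 494 and 658 TPM in ALL-VC and 278 and 205 TPM in ALL (1.25 ± 0.19, adjusted p = 0.0406). Of 25 glycolysis and hypoxia genes, 24 were tested, 1 was called higher and 1, Slc2a3, lower, with a median of 0.76. The list had 4 higher and 1 lower call without ALL library 1 and 0 calls without ALL library 2. Its median was 1.26 without ALL-VC library 1 and 0.16 without ALL-VC library 2. Gapdh, which differs between the ALL-VC libraries, was at 1098 and 1755 TPM in ALL-VC and 800.4 and 849 TPM in ALL (adjusted p = 0.189). Cdkn1a and Pkm were lost without either ALL-VC library (0.115 to 0.196), without ALL library 2 (0.0996 and 0.106) and without either ALL-FGF10 library (0.0567 to 0.0961), and Pkm without either ALL-MTG library (0.0542 for each).

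The remaining large rises by rule were in none of the lists. Pagr1a, a partner of histone methyltransferase complexes, was at 23.2 and 22.1 TPM in ALL-VC and 4.57 and 4.86 TPM in ALL (adjusted p = 0.014). Col27a1, a fibrillar collagen, was at 9.59 and 9.97 TPM in ALL-VC and 2.05 and 1.53 TPM in ALL (adjusted p = 0.0368), and Hypk, a chaperone of the ribosome exit, at 11.1 and 13.6 TPM in ALL-VC and 3.6 and 2.4 TPM in ALL (adjusted p = 0.0367). The unnumbered ALL library had 14.1 TPM of Pagr1a, 15.8 TPM of Col27a1 and 12.48 TPM of Hypk, all above the numbered ALL libraries. Hypk was also near ALL-VC in ALL-FGF10, at 14.3 and 12.2 TPM, and in ALL-MTG, at 9.45 and 11.4 TPM, so the numbered ALL libraries alone were low. The calls of Pagr1a, Col27a1 and Hypk were lost without either ALL-VC library (adjusted p of 0.0909 to 0.208), and those of Col27a1 and Hypk without ALL library 2 (0.0824 and 0.1) or either ALL-FGF10 library (0.099 to 0.105). Mrip-ps, a pseudogene at 19.4 and 19.1 TPM in ALL-VC and 3.31 and 4.73 TPM in ALL, is uncertain because reads of near-identical copies can be divided between them. The same applies to Gm10221, listed at 67.8 and 39.6 TPM in ALL-VC and at 0 in both ALL libraries, and chosen after its values were seen.

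**Figure D3:**
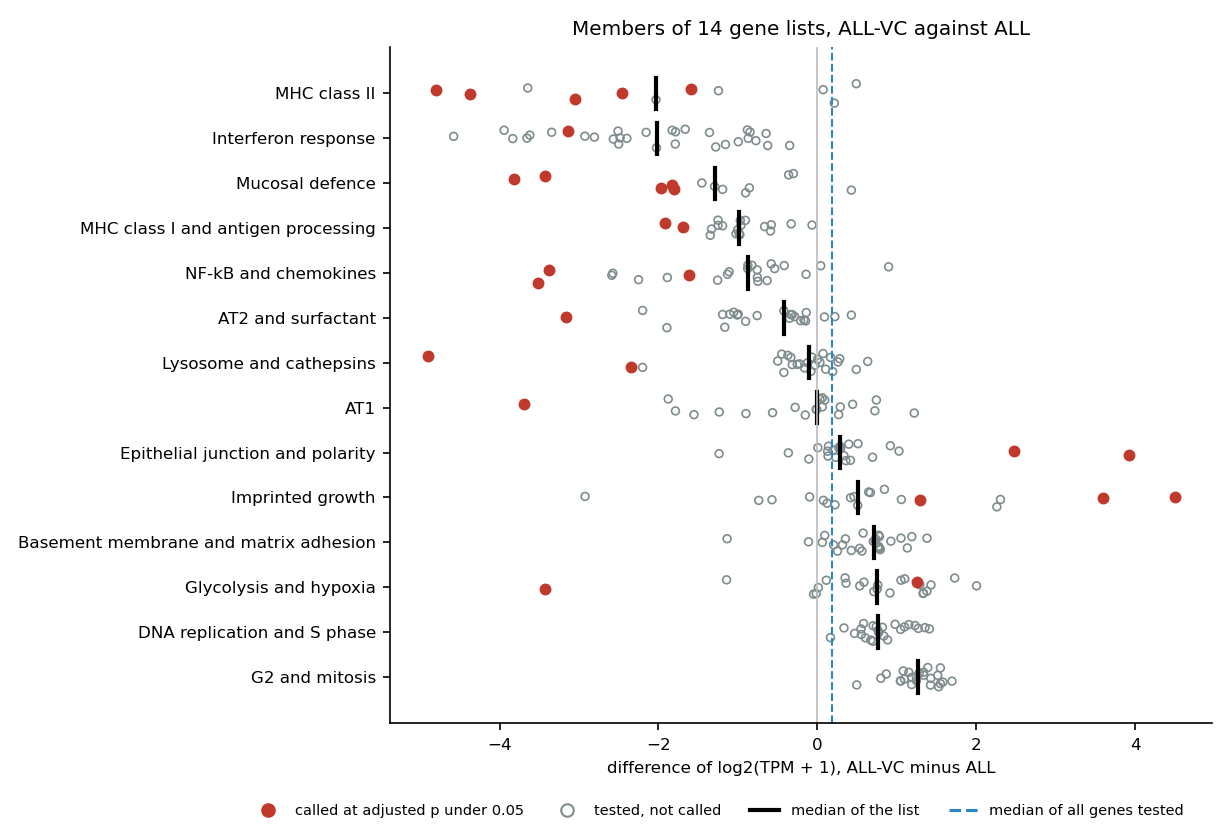
Difference of log2(TPM + 1), ALL-VC minus ALL (horizontal axis), for the tested members of 14 gene lists (rows), with called genes filled red, other genes as open circles, list medians as black bars and the median of all genes tested, 0.18, as a dashed line. The MHC class II and interferon lists have medians of -2.03 and -2.03, and the G2 and mitosis list 1.26 with 0 genes called.

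Cell cycle genes had higher values in ALL-VC without a call. By limma 0 of 24 G2 and mitosis genes were called, with 21 at an unadjusted p under 0.05, all higher (2533 of 14802 over all genes, in either direction). All 24 differences were positive, as were 65.7% over all genes tested. In the list, 21 genes lay above both ALL libraries, as did 31.61% of all genes, and the median was 1.26. The list summed to 1110 and 815 TPM in ALL-VC, against 561 and 264 TPM in ALL, 462 to 679 TPM in ALL-FGF10 and ALL-MTG, and 652 TPM in the unnumbered ALL library. Top2a, the topoisomerase of dividing cells, was at 137 and 84.2 TPM in ALL-VC and 56.1 and 22.1 TPM in ALL (adjusted p = 0.152), and 60 TPM in the unnumbered ALL library. Here ALL library 2 is the lowest of the 9 and ALL-VC library 1 the highest. Without ALL library 1, 21 of the 24 were called higher with a median of 1.80, against 7.36% of all genes and a median of 0.33, and without ALL library 2, 0 were called with a median of 0.69. The 24 S phase genes had 0 calls, 12 genes at an unadjusted p under 0.05 and a median of 0.77, with Pcna, the replication clamp, at 129 and 90.4 TPM in ALL-VC and 86.8 and 61.8 TPM in ALL (adjusted p = 0.281). Without ALL library 1 that list had 8 calls, all higher, and a median of 1.15, and without ALL library 2 it had 0 and a median of 0.36.

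Basement membrane and matrix adhesion genes also had higher values in ALL-VC without a call. Of 27, 26 were tested, 24 had a positive difference (65.7% of all genes did) and 22 lay above both ALL libraries (31.61% of all genes did). By limma 15 had an unadjusted p under 0.05 (2533 of 14802 over all genes) and 0 were called, with a median of 0.71. Col4a1, a chain of the type IV collagen network, was at 402 and 475 TPM in ALL-VC and 305 and 208 TPM in ALL (adjusted p = 0.192), and the unnumbered ALL library had 265 TPM. The laminin chain Lamb3 was at 218 and 256 TPM in ALL-VC and 182 and 146 TPM in ALL (adjusted p = 0.179). Without ALL library 1 the list had 7 higher calls, Lamb3 among them (0.0474), and 1 lower, where 7.36% and 1.64% of all genes were called, and without ALL library 2 it had 2 higher. Dioxygenases of the TET and JmjC families, with DNA methylation genes, had 0 of 21 tested members called, 8 at an unadjusted p under 0.05, a median of 0.48, and 8 higher calls without ALL library 1. Collagen maturation genes had 0 of 16 called, 3 at an unadjusted p under 0.05 and a median of 0.19, with 1 higher call without ALL library 1.

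Of the signalling lists, WNT response genes had 0 of 18 called, 5 at an unadjusted p under 0.05 (2533 of 14802 over all genes) and a median of 0.33. The target Axin2 was at 26.2 and 17 TPM in ALL-VC and 17.6 and 9.66 TPM in ALL (adjusted p = 0.348) and the ligand gene Wnt7b at 43.1 and 28.4 TPM in ALL-VC and 14.4 and 10.3 TPM in ALL (adjusted p = 0.0647), and Wnt7b was called without ALL library 1 (0.0352). By limma, FGF receptor and response genes had 0 of 19 called and 1 at an unadjusted p under 0.05, and BMP and TGF-beta genes 0 of 24 and 6, with a median of 0.11. With ALL library 1 left out, the higher calls were 2 for WNT, 1 for FGF and 2 for BMP and TGF-beta, whose median was then 0.30.

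**Figure D4:**
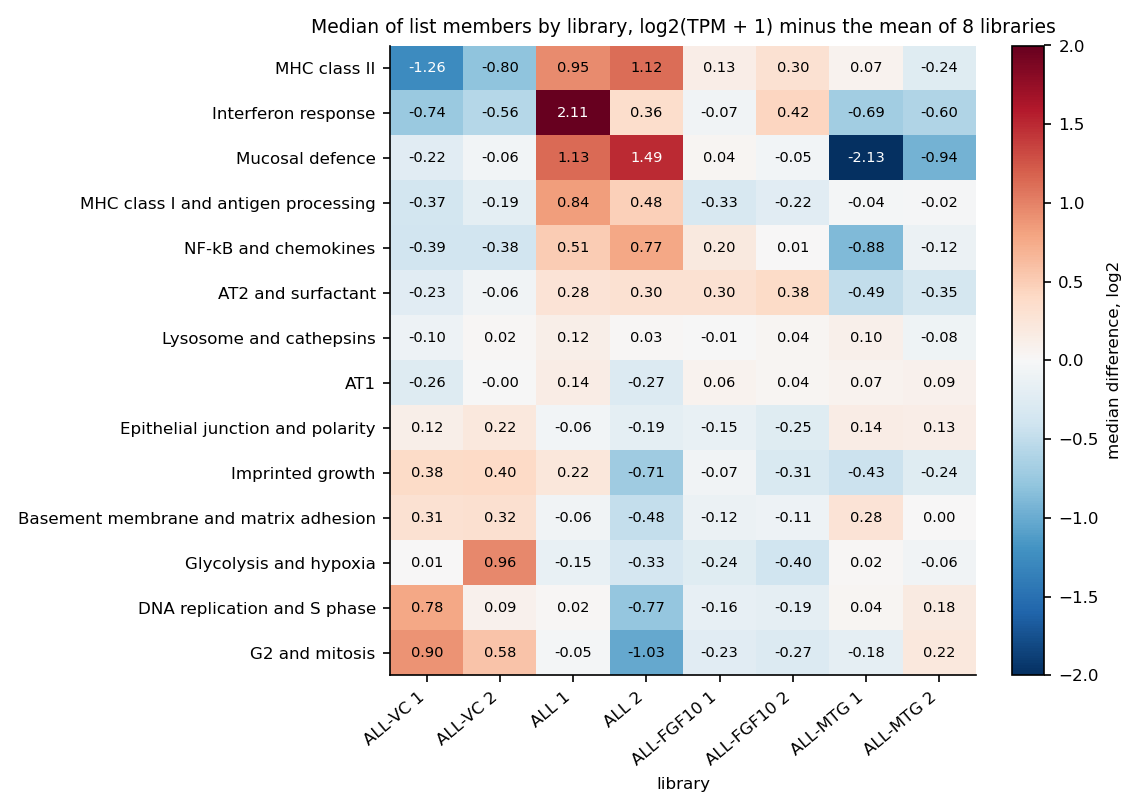
Median over the tested members of 14 gene lists (rows) in each of the 8 numbered libraries (columns), as log2(TPM + 1) minus the mean of the 8 (colour, with the value printed). The class II list is at -1.26 and -0.80 in ALL-VC and at 0.95 and 1.12 in ALL, while the interferon list is high in ALL library 1 (2.11).

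Because the ALL libraries differ, ALL-VC was also set against the mean of ALL, ALL-FGF10 and ALL-MTG in the same fit. This contrast shares its ALL-VC and ALL libraries with the first and gives a further value for each gene, not independent support. By it 211 genes (1.43%) were called, 89 (0.601%) higher and 122 (0.824%) lower, with 42.2% of the called genes higher, against 26.8% after rescaling each library to the median ratio over genes. Of the 122 lower genes, 18 were at 0 in every numbered library but those of ALL-FGF10. Among them are short RNA genes and processed pseudogenes such as Gm26377, chosen after its values were seen, at 23348 and 23848 TPM in ALL-FGF10. Ctsz had the difference -4.94 (adjusted p = 0.00122), close to its -4.91 against ALL. For H2-Ab1 the difference was -3.39 (adjusted p = 0.00291), for H2-Aa -2.91 (0.00641) and for Cd74 -2.10 (0.0066), smaller than against ALL. All 3 passed the threshold. Pdpn differed by -2.94 (0.00408), Muc1 by -3.00 (0.00664), Slc2a3 by -3.82 (0.00766) and Ahcy by -2.58 (0.00232), which were called as well. Pigr differed by -1.08 (0.317), Cd177 by -0.34 (0.659), Tlr2 by -0.64 (0.237), Cd14 by -0.58 (0.255) and Lars2 by -1.21 (0.131), none of them past the threshold. Other members of that set were called by this contrast, namely Ccl5 (-2.27, 0.0231) and Rnf186 (-2.58, 0.0383), while Cxcl3 (-1.73, 0.117) and Pf4 (-1.20, 0.117) were not. Wfdc2, the mucosal defence gene outside that set, was called as well (-1.44, 0.00595). Igf2 differed by 5.70 (0.00612), Dlk1 by 3.70 (0.00538), Gata4 by 2.75 (0.0127) and Ceacam2 by 3.71 (0.00389), all called, whereas Cdkn1a, at 0.92, was not (0.0726). The class II list had 5 of 11 lower by this contrast too, with a median of -1.55, and the interferon list 1 of 31, with a median of -0.89. The count of 211 fell to 11 without ALL-VC library 1, 39 without ALL-VC library 2 and 48 without either ALL-FGF10 library, and rose to 718 without ALL library 1.

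The number of calls against ALL depended on the libraries in the same way. It was 8 without ALL-VC library 1, 25 without ALL-VC library 2, 1309 without ALL library 1, 76 without ALL library 2, 43 and 38 without ALL-FGF10 libraries 1 and 2, and 155 and 142 without ALL-MTG libraries 1 and 2. Of the 119 genes, 117 were called again without ALL library 1, 39 without ALL library 2, 21 without ALL-VC library 2 and 6 without ALL-VC library 1. Those 6, which passed under all 17 alternatives, were Ctsz, H2-Ab1, H2-Aa, Akr1b8, Ahcy and Gm10221. All 119 called genes had ALL-VC libraries without overlap with the ALL libraries. The median difference was -2.46 over the lower genes and 2.03 over the higher genes. Of the lower genes, 8 were listed at 0 in both ALL-VC libraries, so their fitted differences depend on the pseudocount. The lowest of these was Gm23262, a small nucleolar RNA gene at 296 and 153 TPM in ALL, chosen after its values were seen and uncertain because copies of such genes share reads.

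The 2C+VC and 2C libraries gave a comparison that shares no library with the first, with VC read as added to 2C. It has 1 library a side and therefore no test, and what 2C stands for is not given in the labels. The pair also differs in sex-linked genes, with Xist at 0.3 TPM in 2C+VC and 446 TPM in 2C and Eif2s3y at 85.1 TPM in 2C+VC and 0 in 2C, and the part of this in the counts was not tested. A gene was counted when the libraries differed by a log2 of at least 1, with at least 5 TPM in the higher one. Of the 88 genes lower in ALL-VC, 46 (52.3%) were higher in 2C+VC than in 2C and 1 (1.14%) was lower, with 41 counted in neither direction. Of all genes tested, 563 (3.8%) were higher and 294 (1.99%) lower. Of the 31 genes higher in ALL-VC, 1 (3.23%) was higher in 2C+VC and 7 (22.6%) were lower. The median difference was 1.44 for the lower genes, -0.11 for the higher genes and -0.07 for all genes tested.

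Ctsz was at 147 TPM in 2C+VC and 9.34 TPM in 2C. Cd74 was at 89.3 TPM in 2C+VC and 2.87 TPM in 2C, and H2-Ab1 at 5.74 TPM in 2C+VC and 0.36 TPM in 2C, so class II RNA was higher with VC here too, at a much lower level. Pdpn was at 17.9 TPM in 2C+VC and 0.79 TPM in 2C, Gstt2 at 56.3 TPM in 2C+VC and 9.67 TPM in 2C, and Scnn1a at 167 TPM in 2C+VC and 34.5 TPM in 2C. Ahcy was at 18 TPM in 2C+VC and 19.1 TPM in 2C, which do not differ by that measure, and neither do Pigr, at 0.24 TPM in 2C+VC and 0.04 TPM in 2C, or Lars2, at 83 TPM in 2C+VC and 56.7 TPM in 2C. Among the higher genes, Igf2 was at 44 TPM in 2C+VC and 709 TPM in 2C, and Gata4 at 0.48 TPM in 2C+VC and 8.97 TPM in 2C, both higher without VC in this pair, as in the ALL pair. Ceacam2 was different, at 12 TPM in 2C+VC and 0.69 TPM in 2C, higher with VC in this pair and higher without it in the ALL pair. Cdkn1a, at 127 TPM in 2C+VC and 138 TPM in 2C, differed little. The type 2 list had a median of 1.71 in this pair, with Sftpc at 66781 TPM in 2C+VC and 24913 TPM in 2C. For ALL-VC minus ALL, where VC is missing from the first group, the list median was -0.42, so the list lies lower without VC in both pairs. It was lower still in ALL-MTG, at -0.49 and -0.35 against the mean of the 8 numbered libraries, where ALL-VC was at -0.23 and -0.06.

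**Figure D5:**
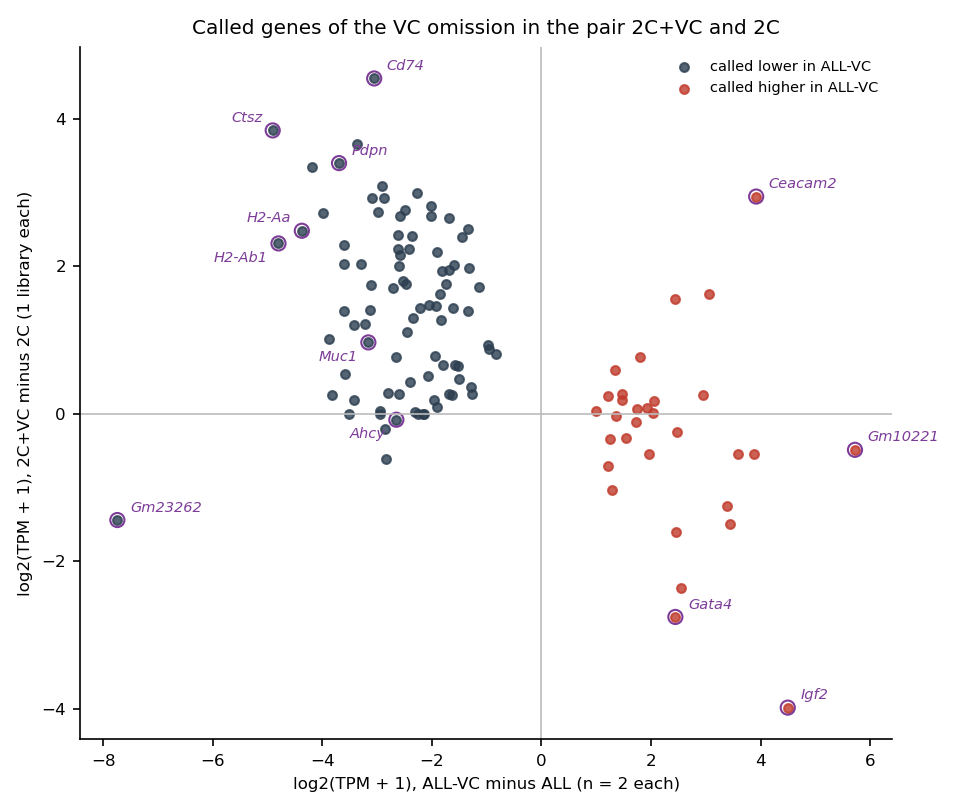
The 119 called genes, with the difference ALL-VC minus ALL (horizontal axis, n = 2 each) and the difference 2C+VC minus 2C (vertical axis, 1 library each), both on log2(TPM + 1), with genes named in the text circled. Of the 88 lower genes (dark points) 46 are higher in 2C+VC by a log2 of at least 1 at 5 TPM or more, while Ahcy and Gm23262 are not.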

How the data were processed

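Gene TPM values were made by the authors with RSEM and Bowtie2 on mm10, per the submitters' processing notes. RNA was extracted with TRIzol, and libraries (VAHTS mRNA-seq v2) were sequenced on a NovaSeq X Plus, per the labels' protocols. The deposited TPM tables hold no counts, so depth is unknown and no counting interval could be given. The 8 numbered libraries had 13036 to 13636 genes at 1 TPM or more. 1 column with no matching sample was left out.

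Deposited TPM values were used as log2(TPM + 1) for genes at 1 TPM or more in at least 2 of 8 libraries, and fitted with limma 3.58.1 in R 4.3.3 (trend, 4 groups of 2 libraries, contrasts ALL-VC minus ALL and ALL-VC minus the mean of the other 3), after a check on simulated data. Tables used Python 3.11.15, pandas 2.3.3, numpy 2.4.6 and matplotlib 3.10.9. Symbols were matched to GENCODE (GRCm38), and promoters to RefSeq (GRCm38.p6).

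The rule for naming genes took the 12 largest rises and 12 largest falls (called, no overlap, 5 TPM or more in the higher group, no predicted genes), every called list member and the 5 most abundant members of each list. At least 31 further genes were added after their values were seen. The comparison and the lists were chosen with earlier results of these data known. Alternatives varied the filter, pseudocount, groups fitted, scaling, trend, replicate block and each library left out. Same-numbered libraries of different groups did not deviate together (r of -0.07 to 0.114 over 6 pairs of groups).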

Additional observations from a re-analysis of the deposited data

How the results depend on the processing

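No called difference of a named gene changed sign under any alternative. Against ALL, the 119 calls (31 higher, 88 lower) became 27 (6, 21) with no filter, 51 (9, 42) with only the ALL-VC and ALL libraries fitted, 186 (31, 155) after median-ratio scaling and 189 (48, 141) after quantile normalization. Median-ratio scaling took the median difference of all genes to 0, against 0.18 as deposited. With a replicate block they became 68 (13, 55), though same-numbered libraries share only a number. Leaving out 1 library at a time gave 8 to 1309 calls, 2 to 1071 higher and 6 to 238 lower. Against the other 3 groups, the 211 calls (89 higher, 122 lower) became 55 (23, 32) with no filter. The replicate block gave 136, of which 48 were higher, and median-ratio scaling gave 59 higher. Leaving out 1 library gave 11 to 718 calls, 4 to 482 higher and 6 to 236 lower. The cause of these differences was not tested, apart from the fewer libraries fitted. Other filters, pseudocounts and a fit without trend kept the counts within 1.5 times. Over all named genes, 4158 values kept their side of the threshold, 410 lost a call and 65 gained one. Direction was compared only for the called genes. With 2 libraries a group and unknown depth, differences of low genes are the least certain.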
